A study of Mus musculus with 6 samples.

Results

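The genes of the interleukin-6 (IL-6) family described here are 5 cytokine genes, *Il6*, *Lif*, *Il11*, *Clcf1* and *Ctf1*, and 5 receptor genes, *Il6st*, *Lifr*, *Osmr*, *Il6ra* and *Il11ra1*. They were taken by gene name, and all 10 were found among the 43346 genes of the count table. RNA-seq of polyadenylated RNA was compared between 3 control and 3 senescent samples of mouse adult fibroblasts (MAFs), primary cells that the study's methods describe as grown from ear tissue of adult female mice of the C57BL6/J strain, kept at 3% oxygen in DMEM with 10% serum. Senescent MAFs had been exposed to 20 Gy of X-rays and then cultured for 21 days, whereas control MAFs were sham irradiated. Both groups had been synchronized with 100 nM dexamethasone, a glucocorticoid, for 2 hours and were collected 12 hours later, so that every value below is from glucocorticoid-treated cells at a single time point. The labels do not say whether the samples of a group came from separate animals or cultures, and p-values measure the spread between these samples, which may be technical.

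Cytokines of this family are small secreted proteins that share the signal-transducing receptor subunit gp130, encoded by *Il6st*. IL-6 and IL-11 first bind a receptor of their own (IL-6Rα and IL-11Rα), which then pairs with gp130, while leukaemia inhibitory factor (*Lif*), cardiotrophin-1 (*Ctf1*) and cardiotrophin-like cytokine factor 1 (*Clcf1*) signal through gp130 together with the LIF receptor. Bound receptors activate JAK kinases, which phosphorylate STAT3, and SOCS3 is the feedback inhibitor made in response. IL-6 is a well known component of the senescence-associated secretory phenotype (SASP), the set of factors that senescent cells release.

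Because the study asked about BMAL1 at E-box and AP-1 motifs, the promoter windows of the members were searched for these motifs, and the 4 windows with a match are shown. RefSeq windows (build GRCm38.p6, 250 bases before to 50 after each start) were given for 9 of the 10 members, 12 windows in all, and were read on both strands for AP-1 (TGACTCA or TGAGTCA, which are each other's reverse complement), the E-box CACGTG, the cyclic AMP element TGACGTCA and the STAT motif TTCNNNGAA. AP-1 letters were found in a window of 3 members, *Il6*, *Lif* and *Il11*, and in 5.95% of the 27025 genes with a window. The E-box was found in *Il6ra* alone among the members and in 8.09% of all genes. Neither the cyclic AMP element nor the STAT motif was found in a member's window, whereas these were in 1.79% and 8.30% of all windows. The 250 bases before each start are given 5′ to 3′ on the strand of the gene, with the matched motif in capitals, for *Il6* (chr5:30012864-30013113, plus strand), *Lif* (chr11:4257318-4257567, plus strand), the inner of the pair of starts of *Il11* (chr7:4778142-4778391, minus strand) and *Il6ra* (chr3:89913197-89913446, minus strand).
Il6: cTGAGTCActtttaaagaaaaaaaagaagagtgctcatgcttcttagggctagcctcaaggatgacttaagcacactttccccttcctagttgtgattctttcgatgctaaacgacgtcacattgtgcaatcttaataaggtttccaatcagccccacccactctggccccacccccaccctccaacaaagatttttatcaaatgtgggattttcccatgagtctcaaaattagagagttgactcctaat
Lif: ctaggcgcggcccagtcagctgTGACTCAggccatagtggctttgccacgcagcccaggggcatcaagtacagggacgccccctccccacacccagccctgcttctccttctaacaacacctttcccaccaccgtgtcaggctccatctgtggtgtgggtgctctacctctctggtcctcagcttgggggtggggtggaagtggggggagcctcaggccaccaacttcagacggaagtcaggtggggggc
Il11: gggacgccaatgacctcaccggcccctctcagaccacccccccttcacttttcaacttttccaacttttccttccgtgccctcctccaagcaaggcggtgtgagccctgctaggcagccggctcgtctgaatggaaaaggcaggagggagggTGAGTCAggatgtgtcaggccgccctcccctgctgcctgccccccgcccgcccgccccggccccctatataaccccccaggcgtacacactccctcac
Il6ra: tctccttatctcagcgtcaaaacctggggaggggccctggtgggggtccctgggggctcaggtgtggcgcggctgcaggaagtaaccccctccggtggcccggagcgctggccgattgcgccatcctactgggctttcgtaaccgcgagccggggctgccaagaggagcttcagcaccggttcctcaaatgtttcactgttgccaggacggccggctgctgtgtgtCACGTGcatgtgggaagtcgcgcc
The AP-1 letters lie from -249 to -243 bases relative to the start of *Il6*, from -228 to -222 relative to that of *Lif* and from -98 to -92 relative to the inner start of *Il11*. The *Il11* window lies within the gene, in an intron of the GENCODE annotation, and the last 11 bases of the *Lif* window lie in its first annotated exon. Which start of *Il11* was used cannot be read from counts per gene. A match describes letters in a window, and binding at these sites was not analysed here. By sequencing of DNA bound to BMAL1 (ChIP-seq), the study lists *Lif* among genes with increased binding in senescent cells. Its text does not give the position of that binding.

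Total counts lay between 50288454 and 61747564 in control and between 53792998 and 82229553 in senescent libraries. *Cdkn1a* and *Cdkn2a*, which encode the cell cycle inhibitors p21 and p16, had log2 fold changes of 2.33 and 1.90 in senescent over control cells, and *Mki67*, a marker of proliferation, fell by 5.94 on the log2 scale. Senescent replicate 3 stood apart, with squared count differences from senescent replicates 1 and 2 at a median of 24.8 and 33.2 times the value that sampling noise gives, against 2.33 between those 2 libraries. In the control group, replicate 1 lay farther from replicates 2 and 3, at 6.04 and 5.17 times, than these lay from each other, at 1.81 times. All 10 fibroblast markers were present, of which 4 rose and 5 fell at an adjusted p below 0.05 (edgeR). By this threshold, 36.2% of all tested genes rose and 34.1% fell. In sum, fibroblast markers were at 17810.5 to 19900.9 counts per 1000000 counts of the library (CPM) in control libraries. They were lower in senescent libraries, at 6717.2 to 8017.93 CPM. Cartilage cell markers were high in control cells, and all 7 tested fell. Their summed level was between 4974 and 5536 CPM in control and between 359 and 445 CPM in senescent libraries. Macrophage markers, from a cell type known to make IL-6 family cytokines, were at 2.35 to 2.72 CPM in sum in control and 9.45 to 11.5 CPM in senescent libraries, with all 4 tested of the 9 in the table higher. The other 5, *C1qa*, *C1qb*, *Tyrobp*, *Fcgr1* and *Aif1*, stayed at or under 0.0284 CPM on average in both groups. The 6 tested endothelial markers were also higher, with sums of 2.85 to 3.16 CPM in control and 10.2 to 10.8 CPM in senescent libraries. Of 5 tested keratinocyte markers 2 were higher and 1 lower, with sums of 15.9 to 16.6 and 26.7 to 27.6 CPM. *Ivl* rose from 0 to 14.0 CPM on average and *Krt15* from 0.0784 to 5.33 CPM, whereas *Trp63* fell from 13.1 to 4.17 CPM. *Krt5* and *Krt10* were not called, and *Krt14*, *Krt1* and *Dsg3* were too low to test. *Itgam*, *Ptprc*, *Lyz2*, *Kdr*, *Vwf*, *Cdh5*, *Ivl* and *Krt15* were tested only because of their counts in senescent libraries. For them, the filter on low counts largely fixed a call as higher in advance. The part of these cell types in the results below was not tested.

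Of the 10 genes, 3 rose more than 2-fold in senescent cells, all of them ligands, and *Il6st* fell by more than 2-fold. *Il6*, *Il6st* and *Clcf1* lay close to this limit, with log2 fold changes of 1.09, -1.07 and 0.94, and each crossed it under some alternative settings. Of the 5 cytokine genes, *Lif*, *Il11*, *Il6* and *Clcf1* rose and *Ctf1* fell, and of the 5 receptor genes, *Il6st*, *Il11ra1* and *Lifr* fell, *Il6ra* rose and *Osmr* did not pass the threshold. The threshold was an adjusted p below 0.05 in the quasi-likelihood test of edgeR, adjusted by Benjamini-Hochberg over all 17589 genes tested. By it, 5 of 10 members were higher, where 36.2% of all tested genes were, and 4 of 10 were lower, against 34.1% of all genes. In either direction 9 of 10 members were called, against 70.3% of all genes. The study's methods set a limit of p below 0.05 without adjustment and a change of more than 2-fold, which 4 of 10 members passed against 30.1% of all genes, 3 of them higher (17.8% of all genes) and 1 lower (12.3%). Control and senescent values did not overlap in any of the 10 members, which also held for 75.3% of all genes tested. The median log2 fold change was 0.08 over the members and 0.01 over all tested genes. In bulk samples, fewer cells that express a gene and less RNA per cell cannot be told apart. Levels are CPM scaled by edgeR's TMM factors, as mean ± SD with n = 3 per group.

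**Figure D1:**
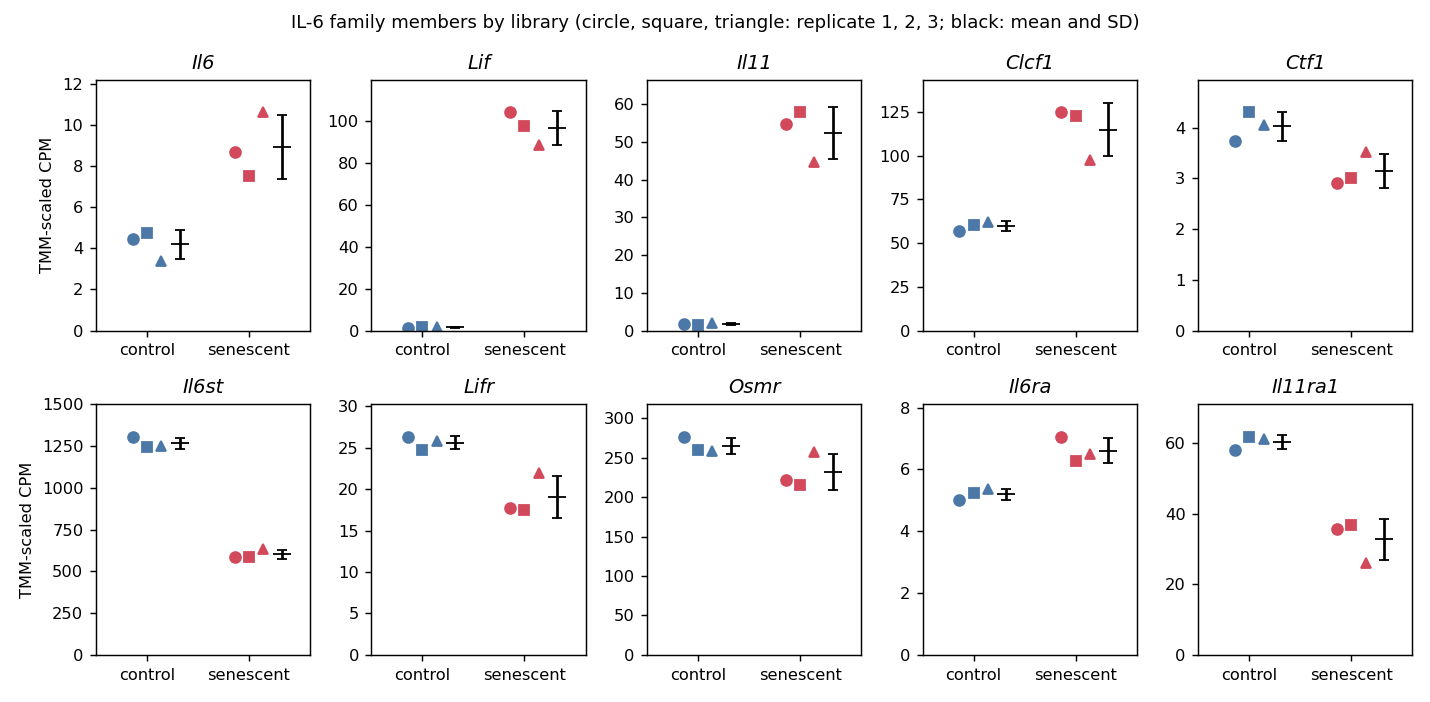
TMM-scaled CPM (vertical axes, each from 0) of the 10 members in each library, with control in blue, senescent in red and the mean and SD of 3 libraries in black. *Lif* and *Il11* are near 0 on these axes in control and at 88.3 to 104 and 44.6 to 57.8 CPM in senescent libraries, and in every panel the groups do not overlap.

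Among the ligands, *Lif* changed most. LIF is a cytokine known for keeping mouse embryonic stem cells undifferentiated and for its release by injured tissue. *Lif* (ENSMUSG00000034394, chr11:4257557-4272514 of mm10) was at 1.22, 1.54 and 1.66 CPM in control replicates 1, 2 and 3 and at 104, 97.5 and 88.3 CPM in senescent replicates 1, 2 and 3. The lowest senescent library thus lay far above the highest control library, and the mean level was 65.6-fold higher in senescent cells. The log2 fold change was 6.03 ± 0.12 (SE) with a 95% interval from 5.74 to 6.32 (adjusted p = 1.71e-08, edgeR), which placed *Lif* at rank 261 of the 17589 tested genes from the largest increase down. *Osm*, which encodes the related cytokine oncostatin M and is the next gene on the chromosome, 16531 bases away, had 0 counts in all 6 libraries. A count of 0 allows up to 3 counts, or between 0.0355 and 0.0613 CPM per library, which covers counting error alone.

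*Il11* was the other ligand with a large increase. IL-11 is known as a cytokine made by stromal cells, with a role in fibrosis. *Il11* (ENSMUSG00000004371, chr7:4773055-4782857) was at 1.68, 1.59 and 2.06 CPM in the control libraries and at 54.7, 57.8 and 44.6 CPM in the senescent libraries. All senescent values were above all control values, with senescent replicate 3 the lowest of them, and the mean was 29.4-fold higher. Its log2 fold change was 4.88 ± 0.15 (SE), with a 95% interval from 4.54 to 5.22 and an adjusted p of 8.35e-08 (edgeR). The intervals of *Lif* and *Il11* did not overlap with each other or with that of any other member.

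*Il6*, the namesake of the family, changed less. *Il6* (ENSMUSG00000025746, chr5:30013161-30019968) was at 4.47, 4.74 and 3.39 CPM in control and at 8.70, 7.51 and 10.6 CPM in senescent replicates 1, 2 and 3. Senescent replicate 3 was the highest library and control replicate 3 the lowest. The mean rose 2.13-fold, from 4.20 ± 0.712 to 8.94 ± 1.57 CPM (SD), with a log2 fold change of 1.09 ± 0.17 (SE) and a 95% interval from 0.70 to 1.48 (adjusted p = 6.30e-04, edgeR). Without senescent replicate 3, the log2 fold change was 0.94.

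Per length, *Clcf1* was the most abundant of the ligand RNAs in control cells. Its product binds the receptor for ciliary neurotrophic factor. *Clcf1* (ENSMUSG00000040663, chr19:4214238-4223490) was at 56.9, 60.7 and 62.3 CPM in control and at 125, 123 and 97.6 CPM in senescent libraries. Senescent replicate 3 was the lowest of its group and still exceeded every control library. The log2 fold change was 0.94 ± 0.10 (SE), or a 1.92-fold higher mean, with an adjusted p of 7.71e-05 (edgeR).

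*Ctf1* was the only ligand of the 5 that was lower in senescent cells. Cardiotrophin-1 is known for its action on heart muscle cells. *Ctf1* (ENSMUSG00000042340, chr7:127712736-127718185) was at 3.73, 4.30 and 4.05 CPM in control and at 2.90, 3.02 and 3.53 CPM in senescent libraries. The gap between the groups was small against the spread within them, and the log2 fold change was -0.35 ± 0.12 (SE, adjusted p = 0.0267, edgeR). This call was lost without control replicate 2 (adjusted p = 0.0950) or 3 (0.0650), without senescent replicate 1 (0.0884) or 2 (0.0825), and with scaling by library size alone (0.0649, same edgeR test). *Ctf1* overlaps its neighbour *Ctf2*, which had 1 count in all 6 libraries together.

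Per length, *Il6st* was the most abundant member in both groups and had the largest decrease. *Il6st* (ENSMUSG00000021756, chr13:112464070-112510086) was at 1305, 1243 and 1248 CPM in control and at 588, 588 and 634 CPM in senescent libraries. Within each group the libraries lay close together, and the mean fell from 1266 ± 34.6 to 603 ± 26.5 CPM (SD), 2.10-fold lower. The log2 fold change was -1.07 ± 0.06 (SE), with a 95% interval from -1.20 to -0.94 and an adjusted p of 1.45e-06 (edgeR).

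The receptors that bind single ligands went in both directions. *Il11ra1* (ENSMUSG00000073889, chr4:41699989-41769474), the receptor of IL-11, was at 58.3, 61.9 and 61.3 CPM in control and at 35.6, 36.8 and 26.2 CPM in senescent libraries. It was 1.84-fold lower in senescent cells, with a log2 fold change of -0.88 ± 0.12 (SE, adjusted p = 3.80e-04, edgeR), so that the cytokine and its own receptor moved in opposite directions. The annotated gene overlaps 6 other protein-coding genes and has a similar copy, *Il11ra2*, with 15 counts in all libraries. The strand setting of the counting and the treatment of reads with several matches are not given in the sources used here, and the level of *Il11ra1* is uncertain to that extent.

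*Il6ra* was the only receptor gene of the 5 that rose. *Il6ra* (ENSMUSG00000027947, chr3:89869324-89913162), which encodes the receptor that gives cells their own response to IL-6, was at 5.01, 5.22 and 5.35 CPM in control and at 7.05, 6.26 and 6.50 CPM in senescent libraries. The increase of the mean was 1.27-fold, with a log2 fold change of 0.34 ± 0.09 (SE, adjusted p = 0.00881, edgeR).

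*Lifr* and *Osmr* lie on chromosome 15 with 1 gene between them and encode the receptors that join gp130 for LIF and for oncostatin M. *Lifr* (ENSMUSG00000054263, chr15:7129559-7197489) was at 26.3, 24.7 and 25.9 CPM in control and at 17.7, 17.5 and 22.0 CPM in senescent libraries. The mean was 1.34-fold lower in senescent cells, with a log2 fold change of -0.43 ± 0.10 (SE, adjusted p = 0.00609, edgeR). *Osmr* (ENSMUSG00000022146, chr15:6813577-6874969) was at 276, 259 and 259 CPM in control and at 222, 215 and 257 CPM in senescent libraries. Senescent replicate 3 was the highest of its group in both genes. The log2 fold change of *Osmr* was -0.19 ± 0.08 (SE), with a 95% interval from -0.38 to -0.01, and did not pass the threshold (adjusted p = 0.0566, edgeR). Without senescent replicate 3 it was -0.27 and passed (adjusted p = 1.44e-05), as it did without a filter on low counts (0.0280, same edgeR test).

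**Figure D2:**
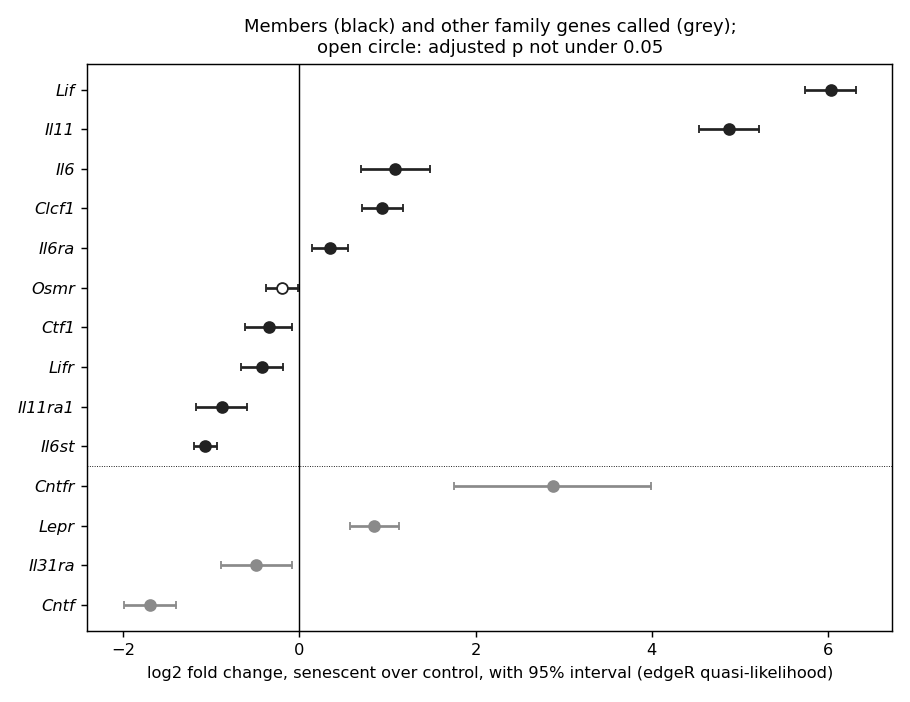
Log2 fold change of senescent over control cells (horizontal axis) with its 95% interval for the 10 members in black and the 4 other genes of the family that were called in grey; filled circles passed an adjusted p under 0.05. *Lif* at 6.03 and *Il11* at 4.88 lie apart from the other members, which lie between -1.07 and 1.09.

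To compare levels between genes, CPM was divided by the gene length in kilobases given in the count table. On this scale the order in control cells was *Il6st* at 114 CPM per kb, *Osmr* at 21.9, *Clcf1* at 16.1, *Il11ra1* at 13.5, *Il6* at 3.86, *Ctf1* at 2.99, *Lifr* at 2.48, *Il6ra* at 1.55, *Il11* at 1.34 and *Lif* at 0.339. Neighbours in this order did not overlap between libraries except *Il6* with *Ctf1* and *Il6ra* with *Il11*. In senescent cells *Il6st* was still first, at 54.3 CPM per kb, and was followed by *Il11* at 39.4, *Clcf1* at 31.0, *Lif* at 22.2, *Osmr* at 19.1, *Il6* at 8.22, *Il11ra1* at 7.35, *Ctf1* at 2.34, *Il6ra* at 1.98 and *Lifr* at 1.85. Here *Il11* overlapped *Clcf1*, *Lif* overlapped *Osmr*, *Il6* overlapped *Il11ra1* and *Il6ra* overlapped *Lifr*. *Lif* thus went from the last place in control cells to the 4th in senescent cells, and *Il11* from the 9th to the 2nd. The lengths in the table are shorter than the exons of the GENCODE annotation for some members, and the order changed with GENCODE lengths. *Il6* was then at 1.73 CPM per kb in control cells, below *Lifr* at 2.38 and *Ctf1* at 2.21, and *Il6ra*, at 0.601, was below *Il11*, at 0.855. In senescent cells, *Clcf1* at 30.2 CPM per kb came before *Il11* at 25.2, *Il11ra1* at 7.35 before *Il6* at 3.68, *Lifr* at 1.77 before *Ctf1* at 1.73, and *Il6ra* was last at 0.764. *Il11* thus went from the 8th to the 3rd place with these lengths, and *Lif* again from the last to the 4th.

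**Figure D3:**
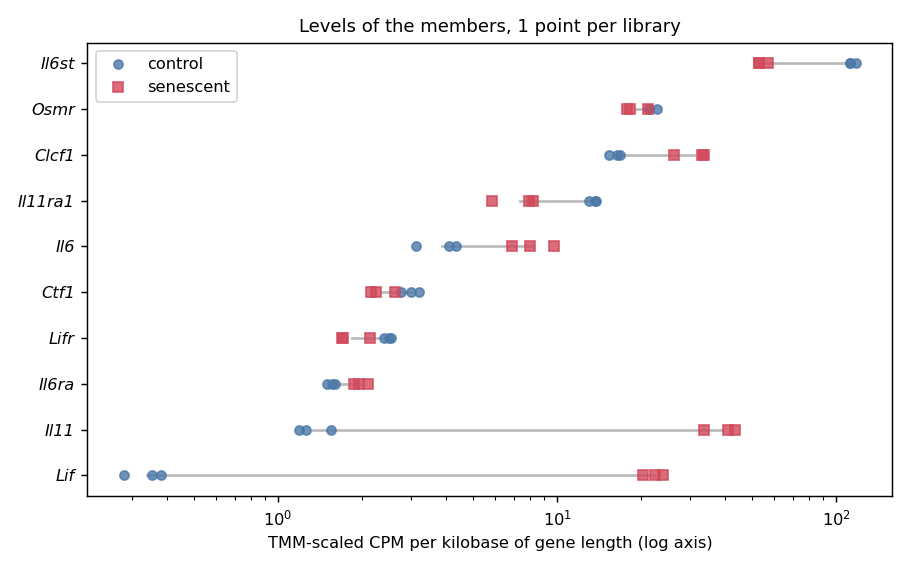
TMM-scaled CPM per kilobase of gene length (horizontal log axis) of the members, ordered by their level in control cells, with 1 point per library, circles for control and squares for senescent. *Il6st* is highest in both groups, and *Lif* and *Il11* move from the lowest levels to the range of *Clcf1* and *Osmr*.

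Summed over the 5 ligands, the level per length was 24.7 ± 0.850 CPM per kb in control and 103 ± 9.18 in senescent cells (SD, n = 3), 4.18-fold higher. The 4 receptors other than *Il6st* were in sum at 39.4 ± 0.413 and 30.3 ± 0.819 CPM per kb. The make-up of the ligand RNA also differed, and these sums and shares were not tested. *Clcf1* held 65.4% ± 1.84 (SD) of the summed ligand level in control and 30.0% ± 1.35 in senescent cells, whereas *Il11* went from 5.43% ± 0.780 to 38.1% ± 1.99 and *Lif* from 1.37% ± 0.176 to 21.6% ± 0.694. The share of *Il6* was 15.7% ± 2.69 in control and 8.10% ± 2.18 in senescent cells, although its level rose. With GENCODE lengths, *Clcf1* held 75.4% and 36.3%, *Il11* 4.09% and 30.3%, *Lif* 1.62% and 26.8%, and *Il6* 8.30% and 4.52% in control and senescent cells.

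**Figure D4:**
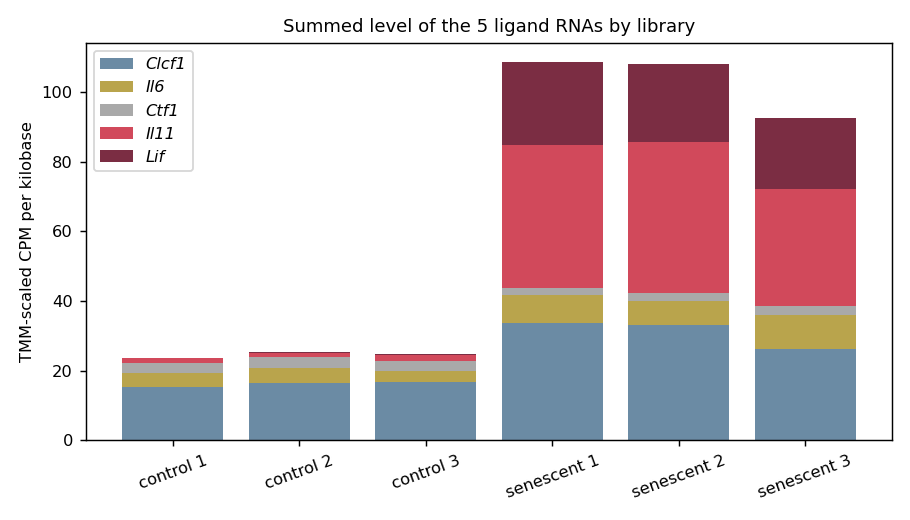
Summed TMM-scaled CPM per kilobase of the 5 ligand RNAs (vertical axis, from 0) in each of the 6 libraries, split by gene. The control bars reach 23.8 to 25.4 and consist mainly of *Clcf1*, and the senescent bars reach 92.5 to 109 with *Il11*, *Clcf1* and *Lif* as the main parts.

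*Lif*, *Il11* and *Il6* were each also set against the receptor gene of their product within a library. The ratio of *Lif* to *Lifr*, per length, lay between 0.110 and 0.152 in control and between 9.53 and 14.0 in senescent libraries, and its mean was 89.5-fold higher in senescent cells. The ratio of *Il11* to *Il11ra1* lay between 0.0863 and 0.113 in control and between 5.16 and 5.73 in senescent libraries, with a 54.5-fold higher mean. For *Il6* and *Il6ra* the ratio lay between 1.95 and 2.79 in control and between 3.69 and 5.02 in senescent libraries, with a mean 1.67-fold higher. The ratio of *Il6st* to *Il6ra* was 73.5 ± 4.38 in control and 27.6 ± 2.21 in senescent cells (SD, n = 3). With GENCODE lengths it was 189.9 and 71.3, and that of *Il11* to *Il11ra1* was 0.0632 in control and 3.44 in senescent cells on average, while the fold between the groups does not depend on the length. None of the 4 ratios overlapped between the groups, and no test of them was run. The smallest p of an exact permutation test of 3 libraries against 3 is 0.1.

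Other genes of the family were few and mostly low. Of 14 further ligands, ligand partners and receptors, 6 had enough counts for the test. Of these, 2 rose and 2 fell, where 36.2% and 34.1% of all tested genes did. *Cntf*, the gene of ciliary neurotrophic factor, fell from 5.21 ± 0.352 to 1.59 ± 0.212 CPM (SD), a log2 fold change of -1.70 (adjusted p = 1.06e-05, edgeR). *Cntfr*, which encodes the receptor that this factor and CLCF1 share, had 3, 6 and 2 counts in control and 36, 50 and 26 counts in senescent libraries, a log2 fold change of 2.88 ± 0.48 (SE, adjusted p = 9.73e-04, edgeR). It was tested only because of its senescent counts, so that the filter on low counts largely fixed its direction in advance. *Lepr*, the gene of the gp130-like leptin receptor, had a log2 fold change of 0.85, and *Il31ra*, a receptor for IL-31, one of -0.49. *Il12a*, *Il27* and *Il31* had 0 counts in control and between 1 and 5 counts in senescent libraries, and no fold is given for them. The median log2 fold change of the 6 tested genes was -0.05, against 0.01 over all tested genes, and the count of lower genes was 1 without any single control replicate or without senescent replicate 1.

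Downstream of gp130, *Stat3* and *Socs3* were both lower in senescent cells. *Stat3*, the main transcription factor of the pathway, was at 307, 308 and 310 CPM in control and at 188, 193 and 171 CPM in senescent libraries, a log2 fold change of -0.75 ± 0.06 (SE, adjusted p = 1.88e-05, edgeR). *Socs3*, its feedback inhibitor and target, was at 45.1, 48.9 and 49.5 CPM in control and at 21.6, 22.2 and 15.5 CPM in senescent libraries. Its log2 fold change was -1.28 ± 0.14 (SE, adjusted p = 7.66e-05, edgeR), and every senescent value lay below every control value in both genes.

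All 24 signal transducers were tested, with 7 called higher, 11 called lower and a median log2 fold change of -0.12. Over all tested genes, the shares called were 36.2% higher and 34.1% lower and the median was 0.01, which also hold as the background of the lists that follow. *Gab2*, a docking protein of the SHP2 and PI3K branches, rose from 6.96 ± 0.832 to 34.4 ± 1.24 CPM (SD), a log2 fold change of 2.30. *Ptpn11*, which encodes SHP2, and *Map2k1*, the gene of the kinase MEK1, had log2 fold changes of 0.59 and 0.58. *Gab1*, another docking protein, fell by 0.82 on the log2 scale. Scaled by library size alone, 11 of the 24 were higher.

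Among 15 inhibitors, 5 rose and 6 fell, around a median log2 fold change of 0.15. By p, the higher ones were led by *Socs7*, *Socs5* and *Socs6*, relatives of *Socs3*, with log2 fold changes of 0.83, 0.65 and 0.89, and the lower ones by *Socs3* itself and by *Pias1* and *Pias3*, which encode inhibitors of activated STAT proteins, at -0.49 and -0.64. Without control replicate 2 or control replicate 3, the count of higher inhibitors was 3. Of the 4 genes for the release of receptor ectodomains from the cell surface, *Adam17*, which encodes the protease that sheds IL-6Rα, fell from 134 ± 1.34 to 69.6 ± 3.16 CPM (SD, adjusted p = 2.88e-06, edgeR). *Adam10*, another such protease, changed by -0.28 on the log2 scale, and *Rhbdf2*, a cofactor of ADAM17, by 0.77. The count of lower genes in this list was 1 without any single control replicate and without senescent replicate 1 or 2.

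Of 20 textbook STAT3 target genes, 12 rose and 5 fell in senescent cells, against 36.2% and 34.1% of all tested genes. Their median log2 fold change was 0.76, against 0.01 over all tested genes. *Saa3*, which encodes an acute phase protein, rose from 0.104 ± 0.0402 to 8.01 ± 0.224 CPM (SD), a log2 fold change of 6.20 (adjusted p = 6.89e-08, edgeR). *Timp1*, an inhibitor of metalloproteinases, rose from 864 ± 21.7 to 2239 ± 56.8 CPM, and *Ccnd1*, the gene of cyclin D1, had a log2 fold change of 1.87. The lower genes were led by *Birc5*, the gene of survivin, which also varies with cell division, at -4.95, *Bcl3*, a regulator of NF-κB, at -1.93, and *Fos*, an AP-1 subunit, at -0.80. The count of lower targets was 3 without control replicate 2 or control replicate 3.

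Of 15 genes listed as upstream regulators of these cytokines, 12 were tested. The direction in which each acts on them was not examined. Of these, 8 rose and 3 fell, around a median log2 fold change of 0.53. The AP-1 family genes *Atf3*, *Fosl1* and *Fosl2* had the smallest p among the higher ones, with log2 fold changes of 3.86, 1.93 and 0.55. *Atf3* rose from 0.694 ± 0.0445 to 10.1 ± 0.454 CPM (SD, adjusted p = 5.53e-08, edgeR). *Il1r1*, which encodes the receptor of IL-1, fell from 171 ± 8.22 to 78.7 ± 6.45 CPM, and *Nfkb1* and *Jund* had log2 fold changes of -0.51 and -0.75. The cytokine genes *Il1a*, *Il1b* and *Tnf* had 0 counts in control and at most 7 counts in senescent libraries and were not tested.

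**Figure D5:**
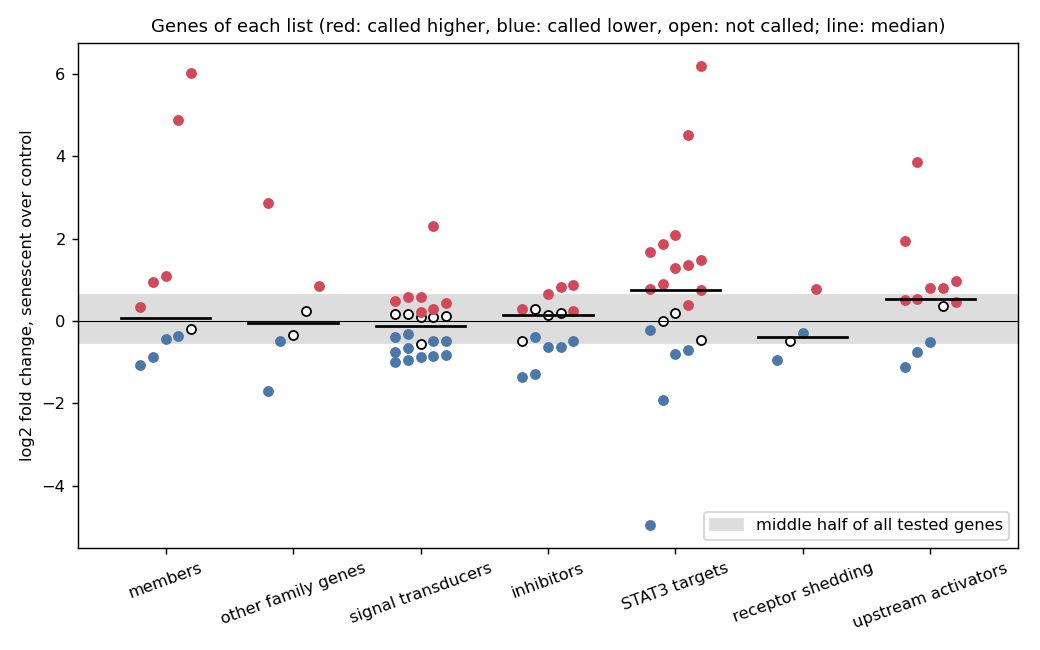
Log2 fold change of senescent over control cells (vertical axis) of the tested genes of the members and of 6 lists, in red where called higher, in blue where called lower and open where not called, with the median as a line and the middle range of all tested genes as a grey band. The medians lie between -0.38 for receptor shedding and 0.76 for STAT3 targets.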

How the data were processed

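The deposited values are raw counts per gene, which the authors made within their MAPRSeq pipeline by STAR alignment of paired reads of 100 bases to mm10 and counting by Subread. Groups and replicate numbers came from the sample labels. Genes were kept by edgeR's filterByExpr (17589 of 43346), libraries were scaled by TMM over the genes kept, and the group was the sole term of edgeR's robust quasi-likelihood fit, tested two-sided (edgeR 4.0.16, R 4.3.3), with Benjamini-Hochberg adjustment over all genes tested. The standard error of a log2 fold change was computed from the F statistic. The members, gene lists and tests were chosen with earlier results of these data known, and lists were written from general knowledge. Named genes are all members, the 3 genes of smallest p in each direction of a list, *Stat3*, *Socs3* and checks of the labels, of which some are not reported here. Alternatives were RLE scaling, library size alone, a filter of 1 count in total, a filter of 10 counts per library, DESeq2 1.42.0, the exact test of edgeR, a term for the replicate number, GENCODE exon lengths, and leaving out each library in turn. On simulated data with 200 changed genes among 17371 tested, the test recovered 188 with 12 false calls. The simulation gave every gene the same relative spread beyond counting error, and no simulated library stood apart. It also changed far fewer genes than were called here, so that these rates need not hold for the real libraries. Promoter sequences are from RefSeq (GRCm38.p6). Protein sequences were not used here.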

Additional observations from a re-analysis of the deposited data

How the results depend on the processing

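For the 10 members, the 13 alternatives kept the direction of every log2 fold change, and in 123 of 130 values also the side of the threshold. The 7 exceptions are those of *Ctf1* and *Osmr* given with these genes. Log2 fold changes ranged from 5.92 to 6.11 for *Lif*, from 0.94 to 1.21 for *Il6* and from -1.10 to -0.99 for *Il6st*. The members called higher numbered 5 under all these alternatives, and those called lower between 3 and 5 with each library left out. By the threshold of the study's methods, applied in the main setting alone, 3 members were higher and 1 was lower. Scaled by library size alone, 11 signal transducers were called higher, and 1 gene each was called lower among the other family genes and the shedding genes. With a filter of 10 counts per library, 1 gene each was called higher and lower among the other family genes and 1 lower among the shedding genes. *Cntfr*, with 2 to 6 counts in control libraries, was not tested under this filter. With no filter, 4 other family genes were called higher. With each library left out in turn, the counts of lower genes ranged from 1 to 3 among other family genes and from 1 to 2 among shedding genes. Those of lower STAT3 targets ranged from 3 to 5 and those of higher inhibitors from 3 to 6. Higher signal transducers numbered from 5 to 10 and higher upstream regulators from 6 to 9. The cause of these shifts was otherwise not tested.

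Whether same-numbered control and senescent samples were paired cannot be decided from the following correlations. They can be dominated by control replicate 1 and senescent replicate 3, which stood apart in their groups. The deviations of same-numbered libraries from their group means had correlations of -0.56, 0.44 and -0.40 over 12958 genes, and control replicate 1 correlated best with senescent replicate 3 (0.67). With the replicate number as a block, 5 members were higher and 4 lower, and 3 inhibitors were called higher in place of 5. Low genes such as *Cntfr* are limited by their counts.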

Other observations

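The genes whose pattern over the 6 libraries was most like that of 4 members were found by the root mean square difference of log2(CPM + 0.5), centred over the libraries, among 12957 other tested genes whose mean reached 100 counts. No p is given, since the 6 points share the contrast between the groups. For *Il6* these were *Vav3*, *Spryd7* and *Lonrf3*, with differences between 0.07 and 0.08. For *Lif* they were *Crct1* (0.06), *Mmp3* (0.20) and *Nrcam* (0.23). *Crct1* was at 0.0427 CPM in control cells, so that its closeness to *Lif* depends on the 0.5 CPM added, and its fitted log2 fold change was 9.24. The same limit holds for *Nrcam*, at 0.465 CPM in control cells and with a fitted log2 fold change of 7.06. For *Il11*, *Kif1a* (0.13) and *Angptl7* (0.14) were among the closest 3. For *Il6st* they were *Ssfa2*, *Prdx4* and *Bicc1*, each with a difference of 0.02, and all 3 had log2 fold changes between -1.10 and -1.03.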
